A study of Mus musculus with 36 samples.

Results

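The lungs of 9 male mice exposed to 0.3 ppm ozone for 6 hr were compared with those of 9 male mice kept in filtered air, which is 18 of the 36 arrays of the study. Each side held 3 mice of each of 3 genotypes, and the genotype entered the comparison as an additive term, so every ozone mouse was set against the air mice of its own genotype. The genotypes were WT (B6129SF1/J, an F1 hybrid), Notch3-/- and Notch4-/- (the tm1Grid allele of each gene), all 7 to 13 weeks old. The knockouts were carried by the whole animal from conception on a mixed background, so a knockout and the line that carried it cannot be told apart. Ozone was given continuously, and the left lung was homogenized whole, so fewer cells of a type and less RNA per cell cannot be told apart in any value below. Each array was hybridized with RNA from 1 mouse. The labels gave no duration for the air mice. The methods describe air exposures alongside the ozone exposures of each length, so the air mice may have been killed at other hours than the 6 hr mice, and any difference that follows the hour of the day cannot be told apart from the exposure.

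The deposited log2 values have a median of 0 for every probe set across all 36 arrays, so they show differences between mice and not how bright a gene was. A probe set was called when its adjusted p was under 0.05 in limma, with Benjamini-Hochberg adjustment over 45037 probe sets. In the 3 Notch3-/- mice after 6 hr ozone the Notch3 probe set 1421964_at lay between -2.00 and -1.83, and in the Notch3-/- air mice it lay between -2.30 and -1.91. The WT mice of these exposures, 6 in all, ranged from -0.00 to 0.88. The Notch4 probe set 1449146_at lay between -3.87 and -3.75 in the Notch4-/- mice after 6 hr ozone, whereas the same 6 WT mice ranged from 0.05 to 0.54. Of the Notch4-/- air mice, however, replicate 3 was at -3.69, while replicates 1 and 2 were at -1.97 and -1.40. By this probe set these 2 mice did not have the Notch4 value of the other Notch4-/- mice, and the results are therefore also given without them. By 1456263_at they were at -0.47 and -0.19, a 48 hr Notch4-/- mouse was at -0.28 and the 6 WT mice were at -0.03 to 0.24. By 1436901_at the Notch4-/- air mice (-0.09 to 0.12) lay within the range of those WT mice (-0.31 to 0.25), so it did not separate the genotypes. A Notch3-/- air mouse, replicate 3, stood apart in skeletal muscle markers, whose median over 11 genes was 2.32 above the mean of its group, against -1.54 to 0.12 in the 9 ozone mice.

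Replicate 1 of the air mice of each genotype lay nearer to the ozone mice than the other air mice did, in the genes that rose most. Per1 was at 0.90 to 1.08 in these 3 air mice and at -0.22 or lower in the other 6, where each value is log2 relative to the air mean of its genotype. Of the 61 genes that rose after ozone, 33 were above that mean in all 3 air mice numbered 1 (54.1%, against 12.9% of all genes), 4 in the 3 numbered 2 and 0 in the 3 numbered 3. Of the 253 genes that fell, 47 were below it in all 3 mice numbered 1 (18.6%, against 21.2% of all genes). The labels do not say what the replicate number stands for. For its pattern analysis the paper divided by air controls that it calls time-matched, without saying which air mice were matched to 6 hr. Whether replicate 1 had another duration of air than the other mice was not tested. Without these 3 mice 592 probe sets were called, 219 higher and 373 lower, and with them as the only air mice 0 were called, with 3045 at an unadjusted p under 0.05. All 61 rises and 253 falls kept their sign against replicate 1 alone, with a median of 0.314 log2 over the rises (0.437 with all 9 air mice) and of -0.283 over the falls (-0.298). Over all 18193 genes, 4814 changed sign. The rises and falls were picked with the same ozone mice and with these air mice among the controls, so their kept signs are a description and not a test. The fits without replicate 1 and with it alone were chosen after seeing the data. Of 48 named probe sets past the threshold, 30 had a difference over 1.5 times that against replicate 1 alone, and 6 did not pass without those 3 mice, those of Ces1g, Dusp1, Egr3, Hes1, Hsph1 and Ptgs2 (adjusted p = 0.0557 to 0.0866).

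Ozone is a reactive gas that oxidizes lipids and proteins in the fluid lining the airways. In mice the inflammatory response to a low dose builds up over a day or more, and the first hours are marked by stress-responsive genes. Glucocorticoid hormones from the adrenal gland, released in stress and over the daily cycle, enter cells and act through a receptor that binds DNA at glucocorticoid response elements. Clock genes such as Per1 respond to that receptor, to cAMP and to the CLOCK and BMAL1 proteins, which bind E-boxes. Molecular chaperones fold and refold proteins, those of the cytosol under the heat shock factor HSF1 and those of the endoplasmic reticulum under the unfolded protein response.

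Promoters are shown for 4 genes that were higher after 6 hr ozone, because they hold sites of the transcription factors named above. Each run is the 250 bases before a transcription start in RefSeq on GRCm38.p6, written 5′ to 3′ on the strand of the gene, with matches of 4 of the searched motifs in capitals. Per1 has 2 windows in that table and the one with an E-box is shown, Errfi1 also has 2 and the one with a cAMP response element is shown, and Dusp1 and Mt1 have 1 each.
Per1, chr11:69098699-69098948, plus strand: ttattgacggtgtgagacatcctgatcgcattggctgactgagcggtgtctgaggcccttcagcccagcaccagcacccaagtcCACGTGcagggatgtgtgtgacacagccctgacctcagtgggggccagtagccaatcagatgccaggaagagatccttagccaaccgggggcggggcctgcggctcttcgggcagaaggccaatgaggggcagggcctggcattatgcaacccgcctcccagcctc
Errfi1, chr4:150854820-150855069, plus strand: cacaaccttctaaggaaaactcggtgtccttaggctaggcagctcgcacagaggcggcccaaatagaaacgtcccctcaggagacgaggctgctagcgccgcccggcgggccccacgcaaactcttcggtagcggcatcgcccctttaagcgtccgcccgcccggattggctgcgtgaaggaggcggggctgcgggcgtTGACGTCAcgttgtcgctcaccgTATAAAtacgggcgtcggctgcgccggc
Dusp1, chr17:26508473-26508722, minus strand: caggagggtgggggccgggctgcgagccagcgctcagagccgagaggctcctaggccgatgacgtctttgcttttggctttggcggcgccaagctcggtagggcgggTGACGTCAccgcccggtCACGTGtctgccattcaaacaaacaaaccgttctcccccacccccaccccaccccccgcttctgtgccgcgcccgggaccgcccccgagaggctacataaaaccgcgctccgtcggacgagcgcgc
Mt1, chr8:94178839-94179088, plus strand: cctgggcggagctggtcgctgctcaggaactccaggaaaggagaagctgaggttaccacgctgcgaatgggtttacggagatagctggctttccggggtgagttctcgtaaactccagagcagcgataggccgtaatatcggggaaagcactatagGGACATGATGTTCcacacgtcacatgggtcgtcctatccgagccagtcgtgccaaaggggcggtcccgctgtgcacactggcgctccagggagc
The capitals mark an E-box (CACGTG) in Per1, a cAMP response element (TGACGTCA) and a TATA box (TATAAA) in Errfi1, a cAMP response element and an E-box in Dusp1, and a glucocorticoid response element in Mt1. Counted back from the start, the E-box of Per1 begins at -166, the cAMP response element of Errfi1 at -51, that of Dusp1 at -143 with its E-box at -126, and the element of Mt1 at -94. Both strands were searched, over windows of 250 bases before and 50 after the start. In all, 10 motifs were searched. An antioxidant response element match (TGACNNNGC) overlaps the Dusp1 E-box, and 2 more begin at -215 and -148 in Per1. A metal response element (TGCNCNC) begins at -23 in Mt1 and at -6 in Dusp1, and an NF-kB site at -37 in Mt1 and -52 in Dusp1, all left in lower case. The D-box (TTANGTAA), the AP-1 site (TGANTCA) and the heat shock element had no match in the runs shown. Among all 32851 windows of 27025 genes, 7.15% held the E-box, 1.79% the cAMP response element, 13.6% the TATA box and 0.475% the glucocorticoid response element. The genes that rose had 71 windows, from 48 of the 61 genes, some with several. Of these windows 11 held an E-box (15.5%), 2 the cAMP response element and 1 the glucocorticoid response element. The metal response element was in 64.8% (51.0% of all windows), the antioxidant element in 16.9% (12.4%), the NF-kB site in 23.9% (20.7%) and the TATA box in 16.9%. Lower than in all windows were the AP-1 site (5.63% against 7.81%), the D-box (1.41% against 2.32%) and the heat shock element (0.0% against 0.603%). The genes that fell had 214 windows, from 184 of the 253 genes, and 14 of the windows held an E-box (6.54%). A match is a description of these letters and not a measured binding site.

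After 6 hr ozone, 747 of 45037 probe sets were called, which is 1.66% of those tested. Of these, 176 were higher (0.391%) and 571 were lower (1.27%). Taken as 1 probe set for each of 18193 genes, 314 were called (1.73%), of which 61 rose (0.335%) and 253 fell (1.39%), and the median difference over all genes was -0.023 log2. The rises were fewer and larger, with a median of 0.467 log2 over the probe sets that rose against -0.301 over those that fell. Among genes, 22 of the 61 rises and 11 of the 253 falls were of at least 0.5 log2. No symbol was listed for 57 of the higher and 118 of the lower probe sets, among them 1441799_at, which had the largest rise of all (2.02 log2). When each array was centred on its own median the split was 194 higher and 371 lower. The number of calls moved with single mice, as described at the end, and 162 probe sets were called without Notch4-/- air replicates 1 and 2. The precision was limited by the number of arrays, with a median SE of 0.079 log2.

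The rises included genes known to respond to glucocorticoids. Of 20 glucocorticoid-responsive genes measured, 6 rose (Per1, Errfi1, Ddit4, Cebpd, Dusp1 and Mt1) and 0 fell, against 0.335% and 1.39% of all genes, and the median of the list was 0.14 log2. Other known targets of the hormone were not among them. Fkbp5, a co-chaperone of the receptor, differed by -0.21 (SE 0.35) and Tsc22d3, which encodes GILZ, by -0.07 (SE 0.08). Sgk1, a kinase of ion transport, differed by 0.00 (SE 0.08) and Zbtb16, a zinc finger repressor, by -0.09 (SE 0.48). The errors of Fkbp5 and Zbtb16 were too wide to place them, and the part of the hormone was not tested. Without Notch4-/- air replicates 1 and 2, 3 of the 20 rose (Errfi1, Ddit4 and Cebpd). Against air replicate 1 alone the median of the list was 0.11. The values of single mice given next are again relative to the air mean of the same genotype.

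Errfi1, which encodes MIG-6, an inhibitor of the EGF receptor kinase, was between -0.38 and 0.53 in the 9 air mice and between 0.64 and 1.29 in the 9 ozone mice, with a median of 0.96. Each of the 9 ozone mice was above each of the 9 air mice, which happened in either direction for 0.26% of probe sets. The rule that named the largest rises required all 9 ozone mice to be above their air mean, which favoured such a separation. The rise was 0.95 log2 (SE 0.12, adjusted p = 0.00341), or 1.94-fold, and its other probe set rose by 0.92 (adjusted p = 0.0187). Without Notch4-/- air replicates 1 and 2 it was 1.03 (adjusted p = 0.0111), and against air replicate 1 alone it was 0.62 (SE 0.13).

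Cebpd encodes the transcription factor C/EBP delta, which takes part in the acute phase response. Its values ran from -0.72 to 0.46 in air mice and from 0.28 to 1.54 in ozone mice, with a median of 1.12 in the latter. There were 8 ozone mice above the highest air mouse, and the lowest ozone mouse lay within the air range. It rose by 1.02 log2 (SE 0.17, adjusted p = 0.0114, and 0.0377 without the 2 Notch4-/- air mice), and was 0.60 (SE 0.18) against air replicate 1 alone. Its other probe set, 1456605_at, was at 0.23 (SE 0.10, adjusted p = 0.213).

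Ddit4 encodes REDD1, an inhibitor of mTORC1 signaling induced by stress and glucocorticoids. It was between -0.50 and 0.67 in air mice and between 0.25 and 1.39 in ozone mice, with 7 ozone mice above all air mice. The rise was 0.88 log2 (SE 0.16, adjusted p = 0.0164, and 0.036 without the 2 Notch4-/- air mice). The highest air mouse of each genotype was replicate 1 (0.41 to 0.67), and against these alone Ddit4 was at 0.38 (SE 0.17). Csrnp1, a nuclear protein known as an early response gene, ran from -0.57 to 0.91 in air and from 0.67 to 1.33 after ozone. With 5 ozone mice above the highest air mouse, Csrnp1 rose by 0.99 (SE 0.18, adjusted p = 0.0146, and 0.0299 without the 2 Notch4-/- air mice). It was at 0.40 (SE 0.17) against air replicate 1 alone, whose 3 values of 0.34 to 0.91 were the highest of each genotype. A further Csrnp1 probe set, 1433000_at, fell by 0.44 (adjusted p = 0.0158), so the probe sets of this gene disagreed. That probe set stands for Csrnp1 in the gene counts, where the gene is 1 of the 253 falls.

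Per1, a repressor within the circadian clock, lay between 0.77 and 1.49 in the ozone mice. The air values ran from -0.86 to 1.08, in the 2 separate ranges given above, and 5 ozone mice were above all of them. The rise of 1.17 log2 (SE 0.26, adjusted p = 0.0346), or 2.25-fold, passed in 6 of the 18 fits that each left out 1 mouse and did not pass without the 2 Notch4-/- air mice (adjusted p = 0.0607). It was 1.68 (adjusted p = 2.6e-05) without air replicate 1 of each genotype and 0.15 (SE 0.14, adjusted p = 0.887) against those 3 mice alone, so the size of the Per1 difference depended on which air mice were used. Klf2, a transcription factor of endothelial cells and of quiescent T cells, rose by 0.80 (SE 0.16, adjusted p = 0.0241), with ozone mice from 0.36 to 1.24 and air mice from -0.56 to 0.81, and was at 0.45 (SE 0.17) against air replicate 1 alone.

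Dusp1, a phosphatase that switches off MAP kinases, and Mt1, a metallothionein that binds zinc, changed less. Dusp1 was between -0.40 and 0.30 in air and between 0.16 and 0.74 after ozone and rose by 0.42 (SE 0.10, adjusted p = 0.04). Mt1 was between -0.28 and 0.20 in air and between 0.03 and 0.67 after ozone and rose by 0.33 (SE 0.08, adjusted p = 0.0418). In both genes most ozone mice were above the highest air mouse, 7 for Dusp1 and 8 for Mt1. Without the 2 Notch4-/- air mice the adjusted p was 0.0537 for Klf2, 0.0673 for Dusp1 and 0.0552 for Mt1. Against air replicate 1 alone Mt1 was at 0.19 (SE 0.10), and its other probe set, 1422557_s_at, was at 0.15 (SE 0.13, adjusted p = 0.547) with all mice.

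**Figure D1:**
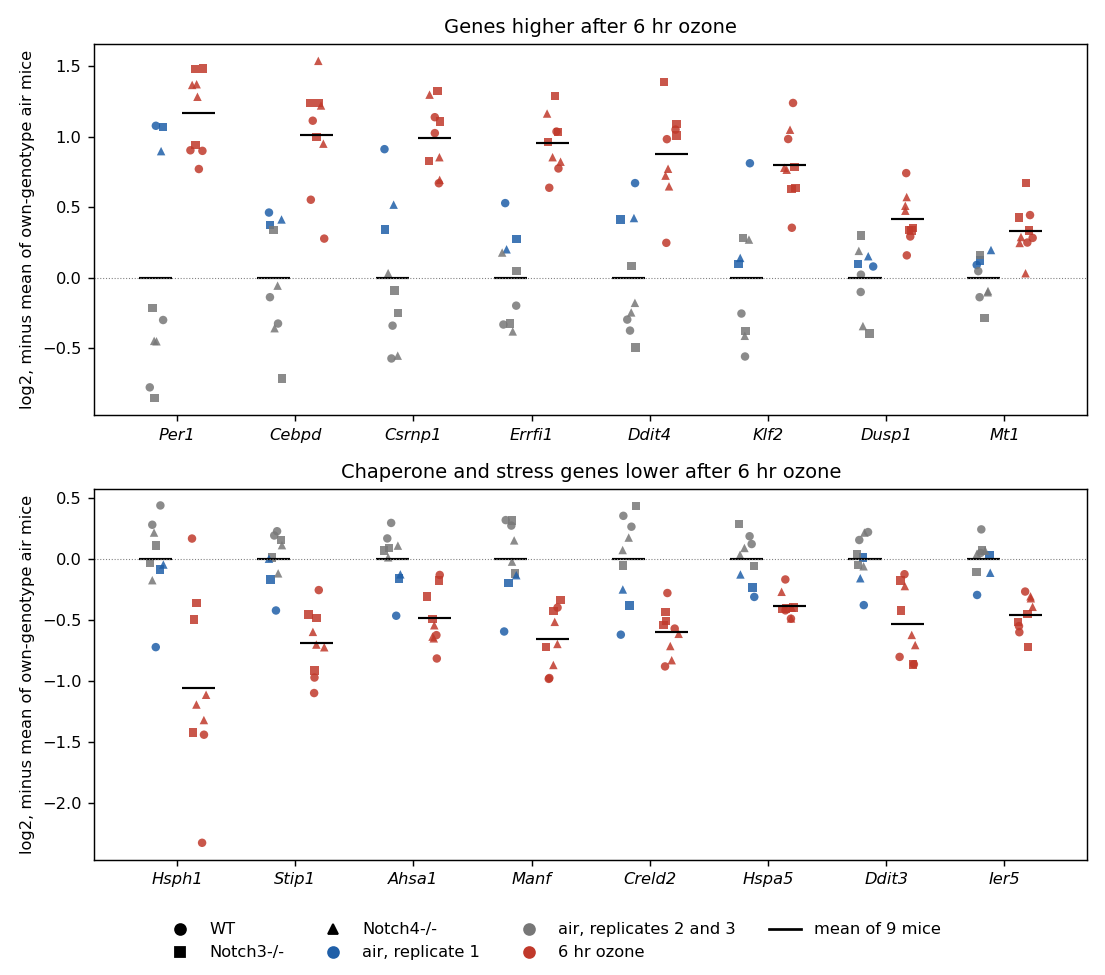
Value of each mouse for 8 genes that rose (top) and 8 that fell (bottom) after 6 hr ozone, in log2 relative to the mean of the air mice of the same genotype. Blue and grey points are the 9 air mice, red points the 9 ozone mice, the marker gives the genotype and the black line is the mean of 9 mice. Replicate 1 of the air mice (blue) lies near the ozone mice for Per1 and toward them for Cebpd, Csrnp1, Ddit4, Manf and Creld2, and the Errfi1 points of air and ozone do not overlap.

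Among 25 immediate early genes, which are transcribed within minutes of a signal without new protein, Dusp1 and Klf2 rose (8.0%, against 0.335% of all genes). Ier5 fell (4.0%, against 1.39%), and the median was 0.22 log2. Nr4a1, an orphan nuclear receptor, differed by 1.09 (SE 0.29, adjusted p = 0.0622) and Egr1, a zinc finger activator, by 0.52 (SE 0.23, adjusted p = 0.232), neither past the threshold. Egr3 (1436329_at) rose by 1.11 (SE 0.25, adjusted p = 0.0342) and Nr4a2 (1450750_a_at) by 0.77 (SE 0.17, adjusted p = 0.0325), but the probe sets that stood for these genes in the list were at -0.29 and -0.21 and did not pass. Nr4a2 was at 0.40 (SE 0.19) against air replicate 1 alone. Nfkbia, which encodes the NF-kB inhibitor IkB alpha, was 0.23 higher (SE 0.06, adjusted p = 0.064) by the probe set used in the lists, and 3 of its other 4 probe sets rose by 0.37 to 0.45 (adjusted p = 0.0166 to 0.0342). Fos, the partner of JUN in AP-1, differed by 0.26 (SE 0.23) and Myc by 0.08 (SE 0.09).

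Ptgs2, which encodes the inducible cyclooxygenase of prostaglandin synthesis, rose by 0.85 log2 (SE 0.20, adjusted p = 0.0391). It was the 1 called gene of 16 in prostaglandin and leukotriene synthesis (6.25%, against 0.335% of all genes rising). Gsta2, a glutathione transferase, rose by 0.81 (SE 0.17, adjusted p = 0.029) and was the 1 called gene of 26 NRF2 antioxidant genes (3.85%). In that list 22 genes had a positive difference and the median was 0.15. Nqo1, the quinone reductase often used to read NRF2 activity, was 0.68 higher (SE 0.22, adjusted p = 0.109) and Hmox1, heme oxygenase 1, 0.05 (SE 0.08). Ccn2, a matricellular growth factor also called CTGF, rose by 0.45 (SE 0.09, adjusted p = 0.0181, and 0.0475 without the 2 Notch4-/- air mice), and Adamts1, a secreted protease of versican, by 0.58 (SE 0.13, adjusted p = 0.0343). Txnrd3, a thioredoxin and glutathione reductase, rose by 0.37 (SE 0.06, adjusted p = 0.0085), with ozone mice from 0.14 to 0.63 and air mice from -0.07 to 0.11. These did not overlap, as for 0.26% of probe sets in either direction. The other probe sets of Txnrd3, at 0.31 and 0.23, did not pass. With air replicate 1 as the only control, Gsta2 was at 0.46 (SE 0.24), Ccn2 at 0.28 (SE 0.09) and Adamts1 at 0.26 (SE 0.13).

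Several other large rises were in genes with scattered roles. Ces1g, a carboxylesterase of lipid metabolism, rose by 1.27 log2 (SE 0.30, adjusted p = 0.0419), Plcb4, a phospholipase C, by 1.31 (SE 0.28, adjusted p = 0.0297), and Lpin2, a phosphatidate phosphatase, by 0.90 (SE 0.20, adjusted p = 0.0342). Atp2b2, a plasma membrane calcium pump, rose by 0.90 (SE 0.16, adjusted p = 0.0133) and a second of its probe sets by 0.50 (adjusted p = 0.00914), while a further one was at 0.79 (SE 0.37, adjusted p = 0.256). The probe set of Ccny, a cyclin, rose by 0.84 (SE 0.16, adjusted p = 0.0183) and its other 6 probe sets, at -0.31 to 0.34, did not pass. The other 4 probe sets of Plcb4, at 0.01 to 0.55, and the other 3 of Lpin2, at 0.21 to 0.50, did not pass either. Gm13306, a predicted gene, rose by 0.81 (SE 0.16, adjusted p = 0.0222). Plcb4 was at 0.62 (SE 0.30), Lpin2 at 0.58 (SE 0.31) and Gm13306 at 0.42 (SE 0.19) against air replicate 1 alone. Of these genes, Atp2b2 (adjusted p = 0.0417) and Gm13306 (adjusted p = 0.04) also passed without the 2 Notch4-/- air mice.

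The falls included chaperones of the cytosol and of the endoplasmic reticulum. Of 17 heat shock genes measured, 0 rose and 3 fell (Hsph1, Stip1 and Ahsa1), 14 had a negative difference and the median was -0.33 log2, against 1.39% of all genes falling and a median of -0.023. The median of the list was between -0.26 and 0.22 in the 9 air mice and between -0.59 and 0.19 in the 9 ozone mice, and 5 ozone mice were below the lowest air mouse. Of 20 genes of the unfolded protein and integrated stress responses, 0 rose and 4 fell (Manf, Creld2, Hspa5 and Ddit3), with a median of -0.17. In both lists many calls rested on few mice, since 1 heat shock gene and 0 of the unfolded protein list passed without the 2 Notch4-/- air mice, when the medians were -0.23 and -0.15. Against air replicate 1 alone they were -0.21 and -0.05.

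Hsph1, a nucleotide exchange factor for HSP70, had the largest fall of any called probe set. Its values were between -0.72 and 0.44 in air mice and between -2.32 and 0.17 in ozone mice, with a median of -1.19, and 6 ozone mice were below all air mice. A WT mouse was the lowest and another WT mouse the highest of the ozone group. The difference was -1.05 (SE 0.25, adjusted p = 0.0419), and a second probe set was at -0.96 (adjusted p = 0.0454). Without the 2 Notch4-/- air mice the value was -0.99 and the adjusted p was 0.112.

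Stip1, also called HOP, which passes clients from HSP70 to HSP90, was between -0.42 and 0.23 in air and between -1.10 and -0.25 after ozone. There were 8 ozone mice below the lowest air mouse, and the difference was -0.69 (SE 0.11, adjusted p = 0.00903, and 0.0418 without the 2 Notch4-/- air mice, and -0.49 with SE 0.16 against air replicate 1 alone). Ahsa1, an activator of the HSP90 ATPase, differed by -0.48 (SE 0.10, adjusted p = 0.0296). It was at -0.24 (SE 0.13) against air replicate 1 alone, and its other probe set, 1444500_at, was at 0.21 (SE 0.10, adjusted p = 0.25) with all mice. Hspa4l, a relative of Hsph1, fell by its probe set 1418253_a_at (-0.59, SE 0.13, adjusted p = 0.0289, and -0.31 against air replicate 1 alone), while the probe set used in the list was at -0.34 (adjusted p = 0.182). The mitochondrial chaperonins Hspd1 (-0.32, SE 0.09, adjusted p = 0.0603) and Hspe1 (-0.46, SE 0.13, adjusted p = 0.0694) did not pass. The genes most often used to read heat shock, Hspa1a and Hspa1b, were at -0.01 (SE 0.50) and -0.52 (SE 0.46), with errors too wide to place them.

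Manf, a secreted protein of the endoplasmic reticulum that is induced when proteins misfold there, was between -0.59 and 0.32 in air and between -0.98 and -0.34 after ozone. The groups overlapped, with 5 ozone mice below the lowest air mouse, and the difference was -0.66 (SE 0.12, adjusted p = 0.0187). Creld2, a partner induced in the same setting, differed by -0.60 (SE 0.13, adjusted p = 0.0312). Hspa5, which encodes BiP, the main HSP70 of the endoplasmic reticulum, was between -0.31 and 0.29 in air and between -0.49 and -0.17 after ozone, at a difference of -0.38 (SE 0.08, adjusted p = 0.0251). Its other called probe sets were at -0.59 (adjusted p = 0.0224) and -0.39 (adjusted p = 0.00877). All 9 ozone mice were below the mean of their air mice for each of these genes, which was a condition of the rule that named the largest falls. None of the 3 genes passed without the 2 Notch4-/- air mice (adjusted p = 0.0578, 0.0773 and 0.0636). Air replicate 1 was the lowest air mouse of its genotype for all 3 genes, and against it alone Manf was at -0.35 (SE 0.14), Creld2 at -0.18 (SE 0.12) and Hspa5 at -0.16 (SE 0.09), while without it the values were -0.81, -0.80 and -0.49 (adjusted p = 0.00581, 0.00155 and 0.00491). The part of these air mice in the falls was not tested.

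Ddit3, which encodes CHOP, the transcription factor linked to cell death in prolonged stress, differed by -0.53 (SE 0.12, adjusted p = 0.0326). Serpinh1, or HSP47, a collagen chaperone, differed by -0.60 (SE 0.15, adjusted p = 0.0436), and by -0.27 (SE 0.12) against air replicate 1 alone. The other probe sets of Ddit3 (0.03) and Serpinh1 (-0.28) did not pass. Other genes of the list did not fall with them. Atf3 was at 0.55 (SE 0.16, adjusted p = 0.0759), Herpud1 at 0.17 (SE 0.09) and Hsp90b1 at -0.13 (SE 0.07), and Calr, the calcium-binding chaperone calreticulin, was at -0.01 (SE 0.08). Ier5, a stress-induced regulator that works with HSF1, was between -0.29 and 0.24 in air and between -0.72 and -0.27 after ozone, and fell (-0.46, SE 0.07, adjusted p = 0.00852, and 0.0278 without the 2 Notch4-/- air mice).

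Of the 20 Notch pathway genes, 2 fell and 0 rose. Notch2, a receptor that neither line lacks, was between -0.12 and 0.12 in air and between -0.50 and -0.20 after ozone, without overlap. Such a separation in either direction was found for 0.26% of probe sets. Notch2 differed by -0.34 (SE 0.06, adjusted p = 0.00903, and 0.0329 without the 2 Notch4-/- air mice). Its other probe set, 1455556_at, was at 0.05 (SE 0.08). Hes1, a repressor that Notch signaling induces, was between -0.30 and 0.27 in air and between -0.77 and 0.14 after ozone, overlapping in 3 ozone mice, and differed by -0.43 (SE 0.10, adjusted p = 0.0446, and 0.111 without those mice). The ligands Jag1 (0.02, SE 0.09), Jag2 (-0.25, SE 0.07), Dll1 (0.02, SE 0.21) and Dll4 (-0.12, SE 0.10) did not pass. By PCR, another measure, the paper reported no effect of ozone on Hes1, Jag1, Jag2 or Dll1.

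Alg6, a glucosyltransferase of N-glycan assembly, had one of the smallest adjusted p-values of the named falls. It was between -0.24 and 0.20 in air mice and between -0.88 and -0.47 in ozone mice and fell to a difference of -0.61 (SE 0.07, adjusted p = 0.00128). Faap100, a Fanconi anemia core protein, was at -0.57 (SE 0.08, adjusted p = 0.00407), and Krtap5-1, a keratin-associated protein of hair, at -0.57 (SE 0.06, adjusted p = 0.00125). The 9 ozone mice were below the 9 air mice in all 3 genes, a separation found in either direction for 0.26% of probe sets. The rule that named these genes required all 9 ozone mice to be below their air mean, which favoured such a separation. Each gene passed without the 2 Notch4-/- air mice (adjusted p = 0.0106, 0.019 and 0.0106). Against air replicate 1 alone they were at -0.68, -0.56 and -0.54, close to the values with all 9 air mice. The other probe sets of Alg6 (0.20) and Faap100 (-0.02 and 0.12) did not pass, so the falls were those of single probe sets.

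Mycn, a transcription factor of growth, was at -0.98 (SE 0.23, adjusted p = 0.0393), with -1.82 in Notch3-/-, -0.51 in WT and -0.62 in Notch4-/- mice. Efna1, a ligand of Eph receptors on endothelium, was at -0.64 (SE 0.14, adjusted p = 0.0312), and Il12a, the p35 chain of interleukin 12, at -0.60 (SE 0.15, adjusted p = 0.0457). With air replicate 1 as the only control, Mycn was at -0.50 (SE 0.24), Efna1 at -0.38 (SE 0.19) and Il12a at -0.33 (SE 0.18). The other probe sets of Mycn were at -0.23 (adjusted p = 0.0465) and 0.06, and that of Efna1 was at -0.41 (adjusted p = 0.0514). Eef1d, a subunit of the elongation factor exchange complex, fell by the probe set 1459754_x_at (-0.59, SE 0.10, adjusted p = 0.0102) and by 1428135_a_at (-0.34, adjusted p = 0.0287), with its other 2 at -0.04 and -0.07. Neo1, the receptor neogenin, fell by 1447694_x_at (-0.55, SE 0.08, adjusted p = 0.0085), and its other probe sets, at 0.03 to 0.50, did not pass. Eln, which encodes elastin, fell as the 1 lower gene of 19 matrix and protease genes (-0.34, SE 0.08, adjusted p = 0.0435), at -0.20 (SE 0.10) against air replicate 1 alone, and its other probe set was at -0.23 (SE 0.26).

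The inflammatory lists had medians near 0 at 6 hr and above 0 later, although not all of their genes rose. Of 29 chemokines 0 were called at 6 hr, with a median of -0.05 log2, and of 15 genes of the IL-6 family 0 were called, with a median of -0.02. Of 32 genes of TNF, IL-1, TLR and NF-kB signaling 0 were called by the probe set used in the lists, with a median of 0.01. At 24 hr the medians of these lists were 0.41, 0.45 and 0.31 and at 48 hr 0.61, 0.39 and 0.29. At 24 hr 1824 probe sets were called (4.05%) and at 48 hr 4091 (9.08%). Of all genes 2.72% rose at 24 hr and 7.23% at 48 hr, and 14 and 19 of the 29 chemokines did. So did 9 and 9 of the 15 IL-6 family genes, and 12 and 19 of the 32 genes of the TNF list. The 6, 24 and 48 hr values share the 9 air mice, so the direct comparison was made between the 9 mice of 6 hr ozone and the 18 of 24 and 48 hr ozone, in which 9623 probe sets were called (21.4%), with 8.66% of all genes higher and 14.0% lower at 6 hr. In it 20 of 29 chemokines, 12 of 15 IL-6 family genes and 20 of 32 genes of the TNF list were lower at 6 hr, and 1 gene of the 3 lists, Nfkbia, was higher.

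Il6, the cytokine that drives the acute phase response, was 0.10 above air at 6 hr (SE 0.11, adjusted p = 0.657), 3.04 above at 24 hr and 2.56 above at 48 hr, and 6 hr minus later was -2.70 (adjusted p = 8.29e-12). The neutrophil chemokines Cxcl1 (0.02, SE 0.17) and Cxcl5 (-0.20, SE 0.28) were at 1.95 and 3.02 at 24 hr, and Cxcl2, also called MIP-2, was at 0.26 (SE 0.13, adjusted p = 0.29) at 6 hr and 1.17 at 24 hr. Ccl2, which draws monocytes, was at -0.32 (SE 0.10, adjusted p = 0.113) and then at 1.45. Tnf was at -0.20 (SE 0.09, adjusted p = 0.267) at 6 hr, 0.15 at 24 hr and 0.23 at 48 hr.

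Of 19 acute phase genes Cebpd alone was called at 6 hr, with a list median of 0.07, against 13 at 24 hr and 11 at 48 hr. Of all genes 0.335% rose and 1.39% fell at 6 hr, and 2.72% rose at 24 hr and 7.23% at 48 hr. In the direct comparison 14.0% of all genes were lower at 6 hr than later. Saa3, a serum amyloid made in the lung, was at -0.46 (SE 0.30) at 6 hr and at 3.00 and 2.84 later, and Timp1, an inhibitor of matrix proteases, was at -0.32 (SE 0.27) and then at 2.94 and 2.99. Socs3, the feedback inhibitor of IL-6 signaling, was at -0.04 (SE 0.08) and then at 1.38 and 1.31. Of 21 genes of EGF ligands and epithelial repair, Ccn2 was called at 6 hr and 16 were lower at 6 hr than later, among them Sprr1a, a cornified envelope protein of injured epithelium (-1.02, SE 0.33, adjusted p = 0.111 at 6 hr, then 2.29 and 3.12). Of 22 mitosis genes and 20 DNA replication genes 0 were called at 6 hr, with medians of -0.11 and -0.08, and 20 and 17 of them rose at 48 hr.

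The genes that changed at 6 hr were also compared with the later mice. Of the 61 genes that rose, 44 were higher at 6 hr than later and 4 lower, against 8.66% and 14.0% of all genes. Of the 253 that fell, 144 were lower at 6 hr than later and 0 higher. The 2 comparisons share the 6 hr mice, so these counts are a description of the time course and not a test of it. Set against air at the other times, 11 of the 61 rose also at 24 hr (2.72% of all genes did) and 13 at 48 hr (7.23%). Of the 253, 15 fell at 24 hr (1.93% of all genes did) and 18 at 48 hr (3.54%). The 3 times share the same air mice, so these overlaps are not separate support.

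Chaperones were among the genes lower at 6 hr than later, although larger shares of the chemokine, acute phase, IL-6 family, epithelial repair, mitosis and DNA replication lists were. Heat shock genes had a median of -0.33 at 6 hr, 0.24 at 24 hr and -0.02 at 48 hr, and 11 of 17 were lower at 6 hr than later and 0 higher. The unfolded protein list had medians of -0.17, 0.19 and 0.15, and 12 of its 20 genes were lower at 6 hr than later and 2 higher. Of all genes 14.0% were lower and 8.66% higher. For 6 hr minus later, Manf was at -0.97 (adjusted p = 1.01e-08), Creld2 was at -0.96 (adjusted p = 5.89e-08), Stip1 at -0.81 (adjusted p = 6.6e-07) and Hspa5 at -0.55 (adjusted p = 6.89e-08). This comparison does not use the air mice, and so does not rest on them other than through the estimate of spread. It does share the 6 hr mice by which these genes were picked, so its adjusted p-values describe the time course and are not separate support. The labels give no hour of killing for the 6 hr or the later mice, and its part was not tested.

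The risers kept different time courses. Per1 was 1.87 log2 higher at 6 hr than later (adjusted p = 9.84e-08), and against air it was at -0.30 at 24 hr and -1.10 at 48 hr. Ddit4 (0.84, adjusted p = 3.27e-05), Klf2 (0.85, adjusted p = 2.09e-05), Csrnp1 (0.71, adjusted p = 0.000117) and Errfi1 (0.55, adjusted p = 5.23e-05) were also higher at 6 hr than later, while Errfi1 and Cebpd were still above air at 24 hr, by 0.63 and 0.90. Mt1 was at 0.61 at 24 hr and at 0.44 at 48 hr and did not differ beyond its error between 6 hr and later (-0.20, adjusted p = 0.196). Ptgs2 was at 0.85, 0.94 and 0.70 at the 3 times.

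**Figure D2:**
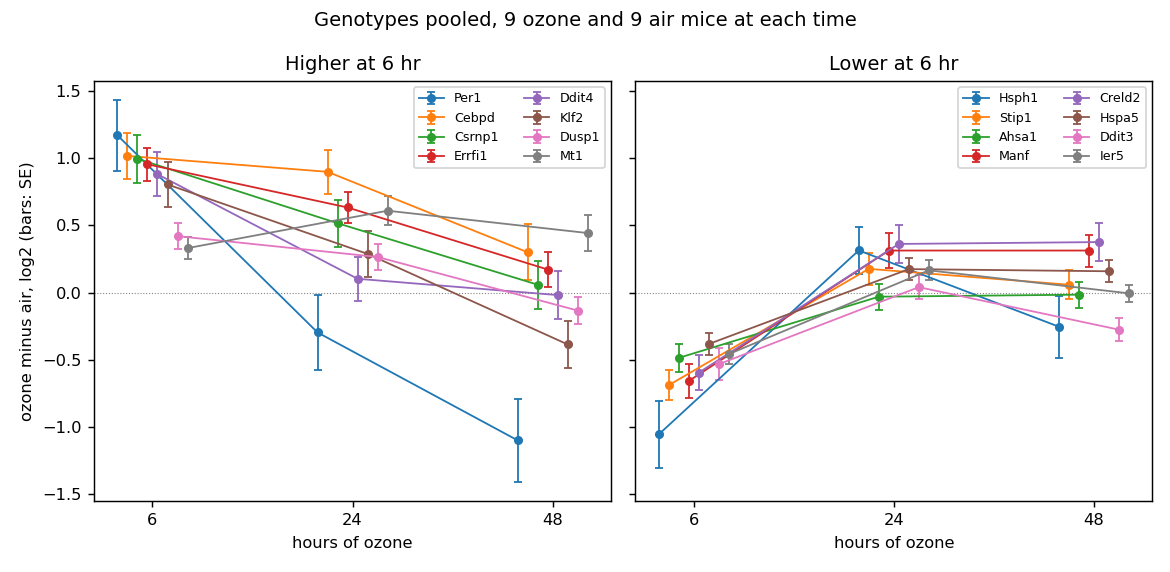
Ozone minus air in log2, with the SE, for the genes of the plot of single mice, at 6, 24 and 48 hr of ozone (evenly spaced, 9 ozone mice at each time and the same 9 air mice). Per1 goes from 1.17 to -1.10, and the chaperone and stress genes on the right are below air at 6 hr and closer to it or above it at 24 hr.

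The circadian clock list had a median of 0.23 log2 at 6 hr, -0.21 at 24 hr and -0.35 at 48 hr, and 1 of its 19 genes, Per1, was called at 6 hr. Against the later mice 11 were higher and 5 lower at 6 hr, as were 8.66% and 14.0% of all genes. Dbp, an output gene of the clock, was at 0.56 (SE 0.29, adjusted p = 0.323) at 6 hr, -2.06 at 24 hr and -1.25 at 48 hr, and Nr1d1, or REV-ERB alpha, was at 0.00 (SE 0.10), -0.69 and -0.70. In the other direction Clock was at -0.08 (SE 0.09), 0.42 and 0.34, and Nfil3, a repressor that opposes Dbp, at 0.07 (SE 0.22), 1.69 and 1.31. The list median was between 0.17 and 0.42 in the 3 air mice numbered 1, between -0.30 and -0.07 in the other 6 and between -0.02 and 0.50 in the 9 ozone mice. Without the 3 air mice numbered 1 the list median was 0.34 and 5 genes rose, Per1, Per2 (0.84, adjusted p = 0.0495), Usp2 (0.75, adjusted p = 0.0305), Hlf (0.76, adjusted p = 0.0449) and Tef (0.52, adjusted p = 0.0302). Against those 3 alone the median was -0.13, and 10 of the 19 genes had the opposite sign, among them Per2 (-0.50), Hlf (-0.23) and Tef (-0.13), while Per1 kept its sign at 0.15. The part of the hour of killing in these values was not tested.

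The remaining lists had few or no calls at 6 hr, when 0.335% of all genes rose and 1.39% fell. Of 22 genes of cholesterol and lipid synthesis 0 were called, 20 had a positive difference and the median was 0.17, with Ch25h, cholesterol 25-hydroxylase, at 0.63 (SE 0.16, adjusted p = 0.0517). Of 15 genes of xenobiotic metabolism 0 were called and the median was 0.17. In that list 7 were higher at 6 hr than later (8.66% of all genes were), among them Ephx1, microsomal epoxide hydrolase (0.68, adjusted p = 3.49e-10). There were also 0 calls among 22 interferon-stimulated genes (median 0.04), 15 hypoxia genes (-0.01) and 21 genes of fasting and fatty acid oxidation (0.05), and Cirbp, the 1 cold-inducible RNA-binding gene measured, was at 0.52 (SE 0.17, adjusted p = 0.112). Of 17 p53 and Gadd45 genes Phlda3, a p53 target, fell (-0.27, SE 0.07, adjusted p = 0.046, and -0.12 against air replicate 1 alone), of 9 metallothionein and zinc genes Mt1 rose, and of 19 matrix and protease genes Adamts1 rose.

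**Figure D3:**
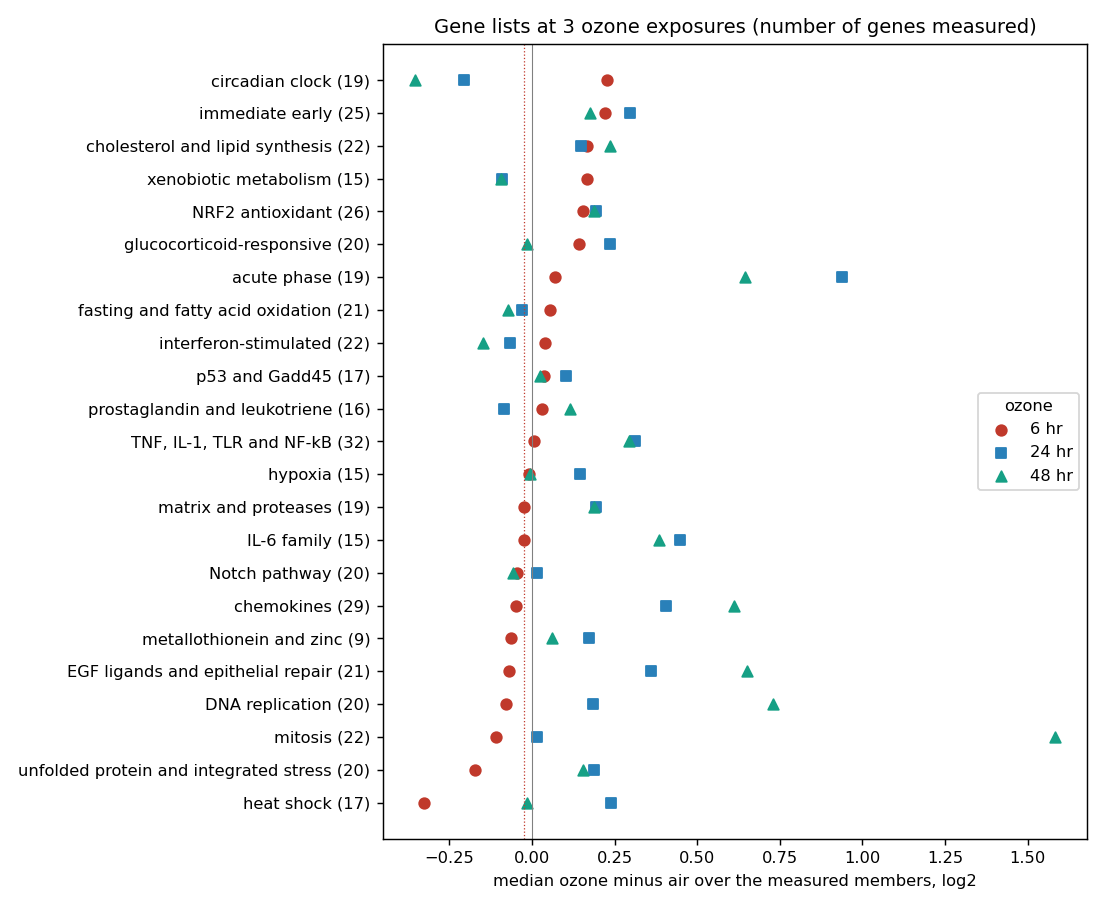
Median over the measured genes of each pathway list of ozone minus air in log2, at 6 hr (circles), 24 hr (squares) and 48 hr (triangles), with the number of genes in brackets and the median of all genes at 6 hr as a dotted line. Heat shock (-0.33) and unfolded protein genes (-0.17) are the lowest of the pathway lists drawn at 6 hr, and the chemokine, acute phase and mitosis lists move away from 0 only at 24 or 48 hr.

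Cell type markers were almost all uncalled at 6 hr, as were genes in general, of which 1.73% were called. Among the genes of 19 marker lists 1 was called, Pparg among 9 alveolar macrophage markers (0.30, SE 0.07, adjusted p = 0.0363, and 0.0697 without air replicate 1 of each genotype). Of 11 neutrophil markers 0 were called, with a median of 0.02, S100a8 at 0.27 (SE 0.24) and S100a9 at 0.34 (SE 0.26). Alveolar type 2, club, ciliated and endothelial markers had medians of 0.05, 0.03, 0.06 and -0.05. The labelled tissue cannot be checked by the level of lung markers, since centred values hold no level. Skeletal muscle markers had a median of -0.39 at 6 hr, which was between -0.54 and 0.01 when 1 mouse was left out in turn, and their part in the falls was not tested.

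Few differences between the genotypes in the 6 hr response passed the test, and the named ones were Trim genes on chromosome 7. A test of whether the 6 hr response differed between the genotypes called 4 of 45037 probe sets (0.00888%), and 2255 had an unadjusted p under 0.05. They were Trim30d (1435665_at), Trim12a (1437432_a_at), Trim34a (1424857_a_at) and 1436061_at, which has no symbol. These genes encode TRIM proteins, a family of ubiquitin ligases with roles in antiviral defense.

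Trim30d was -4.76, -4.76 and -4.63 in the 3 Notch3-/- mice after 6 hr ozone and between -1.32 and 0.89 in the other 33 arrays, which include the Notch3-/- mice in air (-0.78 to 0.32) and after 24 and 48 hr (0.05 to 0.39). The 3 mice thus stood apart from all others, including the rest of their own line. The 6 hr response was -4.58 in Notch3-/-, -0.05 in WT and 0.48 in Notch4-/- mice (SE 0.21, adjusted p of the difference = 1.02e-06). It was -4.69, -0.11 and 0.15 for Trim12a (adjusted p = 4.23e-06), -4.26, -0.23 and 0.32 for Trim34a (adjusted p = 6.06e-05) and -2.52, -0.26 and 0.36 for 1436061_at (adjusted p = 0.0122).

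Other probe sets of the same genes did not follow. Trim34a was at 1.25 in Notch3-/- mice by 1426093_at (adjusted p of the difference = 0.931), Trim12a at -0.29 by 1420648_at (adjusted p = 0.931) and Trim30d at -0.98 by 1438716_at (adjusted p = 0.241). The neighbour Trim5 was at -1.76 (adjusted p = 0.845) and Trim30a at -0.62 and 0.09 by its 2 probe sets. Trim30d was between -1.32 and -0.57 in the 12 WT mice. Outside the 3 mice described, 1 mouse of the knockout lines lay in that range, Notch3-/- air replicate 1 (-0.78), and the others were above it.

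**Figure D4:**
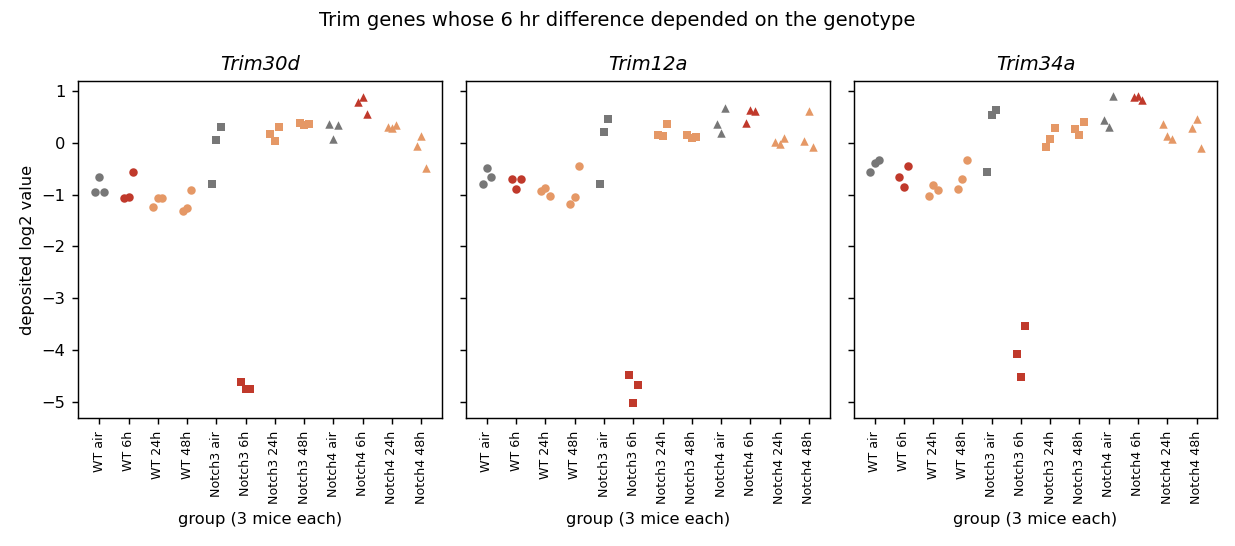
Deposited log2 value of each mouse for the 3 named probe sets whose 6 hr response differed between genotypes, by group of 3 mice, with air in grey, 6 hr ozone in red and later ozone in orange. In each panel the 3 Notch3-/- mice at 6 hr lie below -3.5, and every other mouse is above -1.4.

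The number of calls depended on which mice were included. With 1 mouse left out in turn it ran from 188 to 1242 against 747 with all 18. It was 1242 without WT air replicate 1, 331 without replicate 2 and 188 without replicate 3, 243 without WT ozone replicate 1, 317 and 387 without Notch3-/- air replicates 1 and 2, 322 and 460 without Notch3-/- ozone replicates 1 and 3, 253 and 421 without Notch4-/- air replicates 2 and 3, and 356 and 276 without Notch4-/- ozone replicates 1 and 3. Of the 314 called genes, 71 passed in all 18 of these fits, 11 of them rises and 60 falls, and 69 passed without Notch4-/- air replicates 1 and 2. Of the 48 named probe sets past the threshold 18 passed in all 18 fits, among them those described above for Cebpd, Csrnp1, Errfi1, Ddit4, Ccn2, Txnrd3, Stip1, Manf, Ier5, Notch2, Alg6, Faap100 and Krtap5-1. These include probe sets that do not stand for their gene among the 314, as for Csrnp1, Alg6 and Txnrd3, and the same holds for Atp2b2, Ccny, Plcb4, Egr3, Nr4a2, Hspa4l, Efna1 and Neo1. The 3 ozone mice against the 3 air mice of 1 genotype gave 0 calls in WT, 8 in Notch3-/- and 1 in Notch4-/- mice. In these comparisons the spread was estimated over all 18 arrays.

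**Figure D5:**
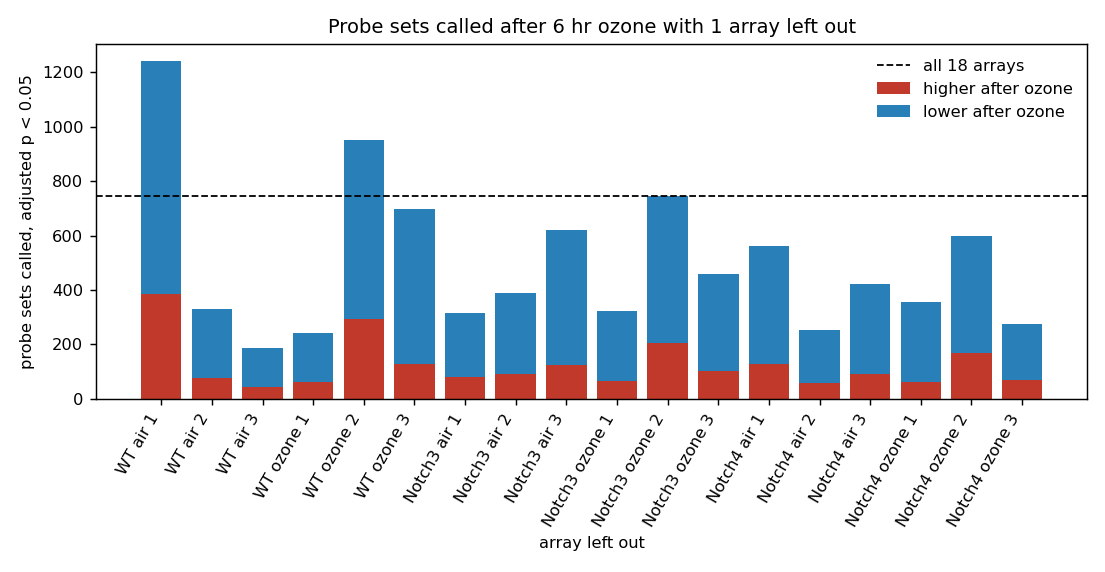
Number of probe sets called after 6 hr ozone when 1 of the 18 arrays was left out, split into higher (red) and lower (blue), with the count from all 18 arrays as a dashed line. The counts run from 188 without WT air 3 to 1242 without WT air 1, and the falls outnumber the rises in each.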

How the data were processed

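The values used are log2 expression values that the authors deposited, 1 column for each of 36 Affymetrix Mouse Genome 430 2.0 arrays. The authors normalized them by robust multiarray average in GeneSpring GX 11.0 (version from the submitters' processing notes). Each probe set is centred on its median over the 36 arrays (largest absolute median 5e-07), which was found in the values. Of 45101 probe sets, 64 controls were left out, and 0 columns were unassigned.

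Groups came from the labels. The 18 arrays of air and 6 hr ozone were fitted with limma 3.58.1 in R 4.3.3 (lmFit, eBayes) with exposure and genotype as additive terms, with Benjamini-Hochberg adjustment of p over 45037 probe sets. The 6 hr response of the genotypes was compared with an F test over 6 group means, and 6 hr with later ozone in all 36 arrays. Fits for 24 and 48 hr used the same 9 air arrays. All adjusted p-values are from limma. Each of 18193 genes was represented by its probe set of the most specific suffix, then of the lowest number. Of the probe sets 34945 have 1 symbol, 932 several and 9160 none, and 34741 were matched to RefSeq.

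The members, the 24 pathway lists and the 19 marker lists were chosen with earlier results of these data known. Genes were named by a rule: the 15 largest rises and falls past the threshold with all 9 ozone mice on 1 side of their air mean, up to 5 genes of each list by p, up to 5 each way for the genotype and time comparisons, and Notch3 and Notch4. Genes outside it that are named were chosen after their values were seen. Replicates are single mice, and replicate numbers did not pair the samples (correlations of same-numbered air and 6 hr mice between -0.372 and 0.399).

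Array medians ran from -0.028 to 0.019 log2, and 2 replicates differed with an SD of 0.225 to 0.433 log2 over probe sets. In simulated data the pooled comparison recovered 82.1% of changes of 0.5 log2, 94% of 1 and 98.5% of 2, with 14 of 197 calls false among 45037 probe sets. The genotype test recovered 57 of 60 changes of 3 log2 and the test of 6 hr against later 98 of 100 changes of 1 log2. Smaller changes were not simulated for these 2 tests. The noise was drawn independently for each probe set and array, without differences shared by many genes of a mouse. The simulated shares therefore do not give the recovery or the false calls of the real data. Promoter windows are those of RefSeq on GRCm38.p6, and tables were handled in Python 3.11.15 with pandas 2.3.3. Alternatives covered the normalization, a variance filter, the arrays and terms in the fit, array weights, the methods' ANOVA and Tukey test, the replicate block and leaving out mice. Gene list counts without Notch4-/- air replicates 1 and 2, and with any probe set of a gene, and the fits without air replicate 1 of each genotype or with it as the only air mouse, were added after seeing the data.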

Additional observations from a re-analysis of the deposited data

Results flagged for a closer look

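The 6 hr response differed between the genotypes, by the limma test of the difference itself, at 4 probe sets, and in each the Notch3-/- mice set the difference. The response in Notch3-/- mice was -4.58 log2 for Trim30d (1435665_at), against -0.05 in WT and 0.48 in Notch4-/- mice. It was -4.69 for Trim12a (1437432_a_at), against -0.11 and 0.15. It was -4.26 for Trim34a (1424857_a_at), against -0.23 and 0.32. It was -2.52 for 1436061_at, which has no gene symbol, against -0.26 and 0.36. Why these 3 mice stood apart was not tested.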

How the results depend on the processing

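For the pooled 6 hr comparison (747 calls, 176 higher and 571 lower) the count was 357 after a further quantile normalization, 215 among the 22518 probe sets with the larger standard deviations, 1305 with 12 group means over all 36 arrays, 1374 with additive terms over all 36, 1739 with array weights, 163 by the methods' ANOVA and Tukey test, and 162 with the first 2 Notch4-/- air replicates left out. With replicate 1 of each genotype as the only air mice it was 0 in limma (3045 at an unadjusted p under 0.05). There were 20 calls without the WT arrays, 2 without the Notch3-/- arrays and 0 in limma without the Notch4-/- arrays, where 5967 had an unadjusted p under 0.05. With the replicate block it was 428 (170 higher and 258 lower), although the replicate numbers did not pair the samples. Leaving out 1 mouse gave 188 to 1242 calls. For the difference between genotypes (4 calls) array weights gave 13, the replicate block gave 4 and leaving out 1 mouse gave 3 to 7, with 7 without Notch3-/- air replicate 1. For 6 hr against later ozone (9623 calls) alternatives gave 9078 to 11614 and leaving out 1 mouse 8087 to 10165. The 24 hr count of 1824 ran from 954, without Notch3-/- 24 hr replicate 1, to 2569, and was 1147 without Notch4-/- 24 hr replicate 3, and the 48 hr count of 4091 ran from 3200 to 4286. Of 72 named probe sets, 10 kept their side of the threshold in every alternative other than the air replicate 1 fits, and none changed sign in them. Against air replicate 1 alone Tef (-0.13), Per2 (-0.50) and Hlf (-0.23) changed sign, none of them called with all mice. Among gene lists, without Notch4-/- air replicates 1 and 2, higher genes numbered 3 of the glucocorticoid list (6 with all mice), 0 each of the circadian clock, NRF2, metallothionein, immediate early, prostaglandin and matrix lists (1, 1, 1, 2, 1 and 1) and 2 of the cholesterol list (0). Lower genes numbered 1 of heat shock (3), 0 of p53 (1), 0 of the unfolded protein list (4), 1 of Notch (2) and 0 of matrix (1). When any probe set of a gene counted, 6 heat shock genes and 1 mitosis gene were lower, 5 immediate early genes were higher and 2 lower, and 1 gene each of the TNF, cholesterol and xenobiotic lists was higher. Without air replicate 1 of each genotype, the median was -0.11 for chemokines and -0.10 for the matrix list, 5 clock genes and 1 gene each of the TNF and xenobiotic lists were higher, 2 genes each of the p53 and matrix lists and 1 of Notch were lower, and 0 of the prostaglandin list was higher. With it as the only air mouse, medians were -0.13 (clock), 0.065 (chemokines), -0.046 (unfolded protein), 0.20 (fasting), 0.10 (prostaglandin) and 0.039 (matrix). The causes were not tested. Signal over background cannot be read from these values, so a dim gene near its detection limit could not be told from an unchanged one.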

Other observations

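A few of the falls were in gene families of hair, skin and smell, which were chosen after their values were seen and are given with no test. Of 53 keratin-associated and late cornified envelope genes (Krtap and Lce), 10 fell after 6 hr ozone (18.9%, against 1.39% of all genes), 0 rose, 45 had a negative difference and the median was -0.11 log2. Of 39 olfactory receptor genes (Olfr), 2 fell, 0 rose, 35 had a negative difference and the median was -0.11. Over all genes, 10456 of 18193 had a negative difference. Whether such probe sets were above background cannot be read from centred values.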
